A study of Bos taurus with 10 samples.

Results

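ABC transporters are membrane proteins that spend ATP to move lipids, conjugates, drugs or fatty acids across a membrane. The 8 ABC transporter genes described here, ABCA1, ABCA5, ABCC2, ABCC3, ABCC5, ABCC10, ABCD3 and ABCG2, were taken by name from the 4366 genes that could be named on a bovine cDNA microarray, and they occupied 11 of its 5472 named elements (a cDNA clone spotted on the slide). ABCA1 had 4 elements and each of the other genes had 1. All 8 genes had a value on every array, as did 4307 of the named genes. From a list of 39 further ABC genes, 1 was measured, TAP2, which with its partner moves peptides into the endoplasmic reticulum for antigen presentation.

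The study measured 5 tissues of cattle (Bos taurus) at peak lactation: the liver, the mammary gland and 3 fat depots, of which the mesenteric and omental are visceral and the other is subcutaneous. Total RNA of each tissue was set on 2 arrays against a common reference made from mixed tissues. The tissue carried the dye Cy3 on one array and Cy5 on the other. The labels name a cow at peak lactation for each tissue and no treatment, age or breed, and they do not say whether the tissues came from 1 animal or from pooled RNA. Both arrays of a tissue carry the same RNA, so each tissue is 1 sample. There is no spread between animals and no p-value is given.

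A level below is the log2 ratio of tissue over reference after each array was centred on its median. A level of 0 therefore means that the gene stood in the tissue as it did in the reference, relative to the other spots. Levels are relative to the reference for that gene alone and cannot be set against the level of another gene. The value after ± is the distance of each dye orientation from the mean of both, called the dye orientation error. Small gaps between tissues are also set against the root mean square (RMS) of this error over all named genes, which was 0.19 to 0.32 log2 units in the 5 comparisons made. The RMS is raised by a minority of genes with wide errors, and the median error was 0.075 to 0.16. A difference between tissues was called where its mean was at least 1 log2 unit in size and both orientations had the same sign. A dye effect of a gene that is constant in log2 units cancels in such a difference and in a level averaged over both orientations. It does not cancel in the value of a single array, and it widens the error of a level. The labels do not state the direction of the ratio. The direction used here is the likely one, since it places 4 of the 5 measured hepatocyte markers highest in liver and 6 of the 7 mammary epithelial markers highest in mammary gland, and with the opposite direction every sign below would turn. Gene names rest on a print layout worked out from the data, and a single element can carry a wrong name.

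ABC proteins are grouped by sequence into subfamilies. Members of subfamily A move lipids, and ABCA1 hands cholesterol and phospholipid to apolipoprotein A-I. Many members of subfamily C export organic anions such as glutathione, glucuronide and sulphate conjugates. ABCC2, also called MRP2, exports them into the bile canaliculus, and ABCC3 across the side of the cell that faces the blood. ABCD3 brings long-chain and branched-chain acyl-CoA and bile acid precursors into peroxisomes. ABCG2, also called BCRP, sits in the apical membrane of bile canaliculi and of the lactating alveolus, where it carries riboflavin and many drugs into milk.

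The lactating mammary gland held the highest level of ABCG2, and liver the highest levels of ABCC2, ABCD3, ABCC5 and ABCA5. Subcutaneous adipose tissue was highest for ABCC10, and for ABCC3 by no more than 0.06 ± 0.05 over omental fat, which is under the RMS error. Mesenteric adipose tissue was highest for ABCA1 through 1 of its 4 elements (6.22), and without that element subcutaneous fat was highest (1.67 against 1.14 in mesenteric fat). Over all named genes, 24.5% were highest in liver, 23.3% in mammary gland, 16.2% in mesenteric, 9.94% in omental and 26.0% in subcutaneous adipose tissue. Mammary gland was the lowest tissue for 3 of the 8 genes (ABCA1, ABCC3 and ABCD3) and for 26.8% of all named genes, and liver for none of the 8 and for 29.7% of all named genes.

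The genes differed widely in how far their tissues stood apart. The span, the highest tissue level minus the lowest, was 4.68 log2 units for ABCG2 and 4.49 for ABCC2, which rank 38 and 45 of 4307 genes. ABCD3 spanned 2.55 (rank 248), ABCA1 1.97 (rank 474), ABCC5 1.64 (rank 675) and ABCC10 1.39 (rank 890). ABCC3 at 0.81 and ABCA5 at 0.68 lay near the median span of all named genes, 0.73. Duplicate spots of the 11 elements on an array lay at most 0.77 log2 units apart.

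**Figure D1:**
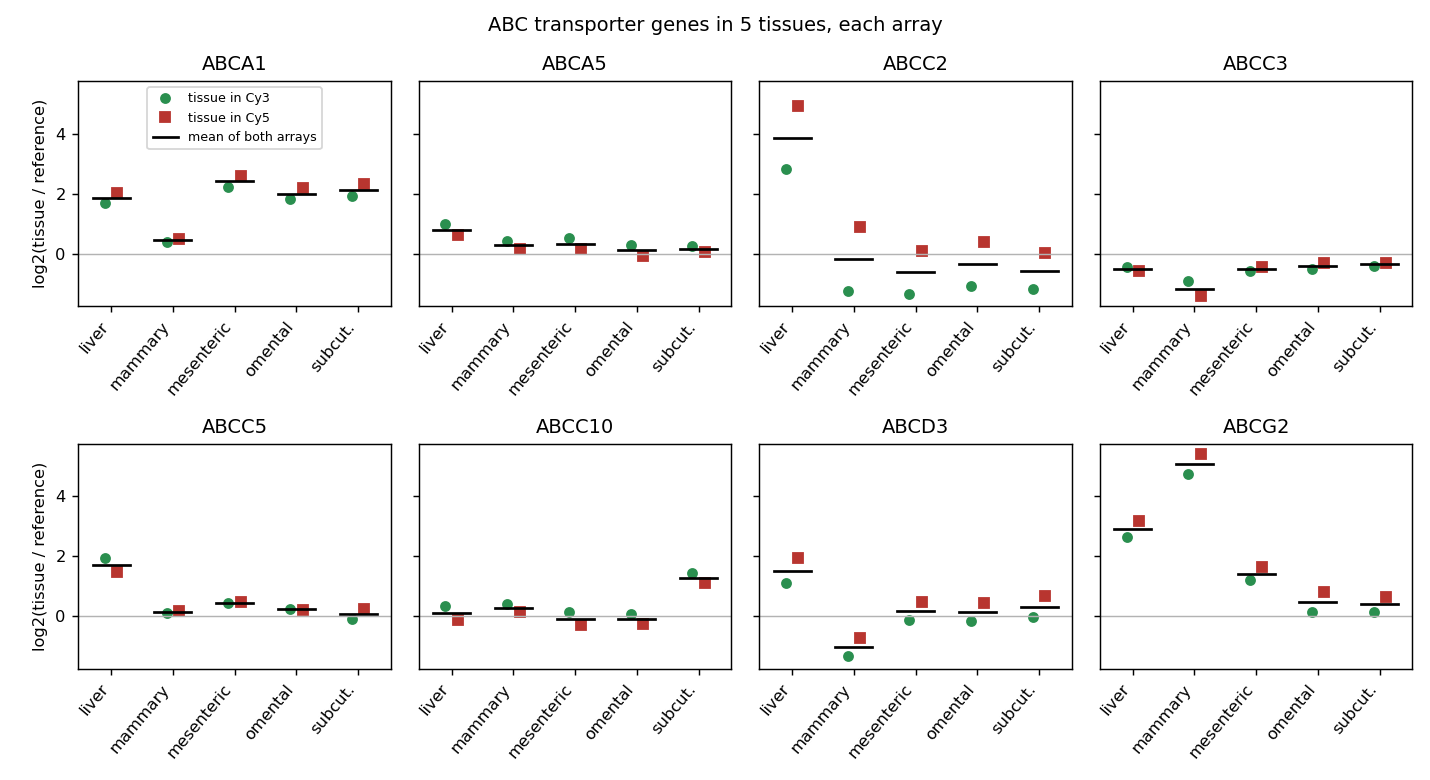
Level of each of the 8 ABC transporter genes (vertical axis, log2 of tissue over reference, centred on the array median) in each tissue (horizontal axis). Circles are the arrays with the tissue in Cy3, squares those with the tissue in Cy5, and bars their mean. ABCG2 is highest in mammary gland (5.07), ABCC2 in liver (3.86), and the ABCC2 points of one tissue lie far apart, with Cy5 above Cy3, in 5 of 5 tissues.

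ABCG2 (Entrez 536203) stood highest in mammary gland, next in liver, and lower in the 3 fat depots. In mammary gland the level was 4.73 with the tissue in Cy3 and 5.41 with the tissue in Cy5 (mean 5.07 ± 0.34). In liver it was 2.65 and 3.16 (2.90 ± 0.26). Both mammary values lay above both liver values, and both liver values above all adipose values. The level was 1.20 and 1.65 in mesenteric (1.42 ± 0.22), 0.14 and 0.82 in omental (0.48 ± 0.34), and 0.14 and 0.64 in subcutaneous adipose tissue (0.39 ± 0.25). Mesenteric fat lay above the other depots in both orientations, while omental and subcutaneous fat differed by 0.09 ± 0.09 and could not be ordered beyond their spread.

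Between mammary gland and the mean of the 3 depots ABCG2 differed by 4.31 ± 0.07 log2 units (19.8-fold), which ranks 3 of 4313 genes. Liver also stood above the depots, by 2.14 ± 0.01 (4.41-fold, rank 87 of 4326), and below mammary gland by 2.17 on the log2 scale, a difference of -2.17 ± 0.08 (4.49-fold). After quantile normalisation, which forces the arrays to 1 distribution, the difference of liver from mammary gland was -3.33, the same direction and larger. Mesenteric exceeded subcutaneous fat by 1.03 ± 0.02 (2.04-fold), which just passed the size rule, as did 4.21% of 4344 genes in that direction and 6.70% in the other. That pair was looked at after its value was seen. The difference was 0.98 from the second spot alone and 0.24 without centring, where the median of all genes stood at -0.80, and neither passed. Mesenteric exceeded omental fat by 0.94 ± 0.12 (1.92-fold), rank 47 of 4340 genes but short of the size rule. Without the omental Cy5 array that difference was 1.06, the value of the Cy3 orientation alone, which is past the size of the rule. The labels of that array disagree on its reference dye, naming Cy5 in one field and Cy3 in another. Subcutaneous fat stood at -0.56 ± 0.03 against the mean of the visceral depots, which did not pass.

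ABCC2 (Entrez 520925), the canalicular exporter of conjugated bilirubin and glutathione conjugates, was high in liver and low in the other 4 tissues. The liver arrays read 2.81 with Cy3 and 4.91 with Cy5 (3.86 ± 1.05). Mammary gland read -1.26 and 0.89 (-0.18 ± 1.07), and mesenteric adipose tissue -1.35 and 0.10 (-0.63 ± 0.73). Both liver values lay above every other ABCC2 value. Omental adipose tissue read -1.09 and 0.39 (-0.35 ± 0.74) and subcutaneous adipose tissue -1.18 and 0.00 (-0.59 ± 0.59). The wide errors come with an offset between dyes: the Cy5 array exceeded the Cy3 array by 2.10 in liver, 2.15 in mammary gland, 1.45 in mesenteric, 1.48 in omental and 1.18 in subcutaneous adipose tissue.

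Because the offset was alike in liver and mammary gland, the difference between these tissues had a small error, 4.04 ± 0.02 log2 units (16.5-fold, rank 28 of 4325). Against the adipose mean liver was higher by 4.38 ± 0.36 (20.8-fold, rank 12 of 4326). Mammary gland and the adipose mean could not be told apart for ABCC2, at 0.34 ± 0.39 with opposite signs in the 2 orientations (-0.05 and 0.73). The pairs mammary gland and omental fat, and subcutaneous and mesenteric fat, were likewise within their spread.

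ABCC3 (Entrez 533151), which exports glucuronides and bile acids toward the blood, lay below the reference in every tissue. Mammary gland was lowest, at -0.93 and -1.42 (-1.17 ± 0.24), and both its values lay below all other ABCC3 values. Liver read -0.44 and -0.57 (-0.51 ± 0.06), mesenteric fat -0.59 and -0.45 (-0.52 ± 0.07), omental fat -0.52 and -0.32 (-0.42 ± 0.10) and subcutaneous fat -0.42 and -0.31 (-0.37 ± 0.05). These 4 tissues lay within 0.16 log2 units of each other, less than the RMS error. Mammary gland differed from the adipose mean by -0.74 ± 0.32 and from liver by 0.67 ± 0.18 in favour of liver. Neither difference passed the size rule. Without the Cy3 arrays the first was -1.06, past it.

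ABCC5 (Entrez 511769), an exporter of cyclic nucleotides and nucleotide analogues, was highest in liver. The liver arrays read 1.96 and 1.46 (1.71 ± 0.25), above all other values of the gene. Mesenteric fat read 0.44 and 0.48, omental fat 0.24 and 0.21, mammary gland 0.12 and 0.18, and subcutaneous fat -0.09 and 0.24. Liver exceeded mammary gland by 1.55 ± 0.28 (2.94-fold) and the adipose mean by 1.46 ± 0.30 (2.74-fold). The gap between mammary gland and subcutaneous fat was smaller than its error, and that between omental fat and mammary gland was smaller than the RMS error.

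ABCC10 (Entrez 508399), which can export drugs and estradiol glucuronide, was the 1 gene of the 8 called between subcutaneous fat and the mean of the visceral depots. Subcutaneous adipose tissue read 1.45 and 1.12 (1.29 ± 0.17), above every other value of the gene. Mammary gland read 0.41 and 0.13, liver 0.33 and -0.13, mesenteric fat 0.14 and -0.29, and omental fat 0.06 and -0.27. Subcutaneous fat exceeded the mean of the visceral depots by 1.38 ± 0.02 (2.60-fold, rank 165 of 4332), and mammary gland, the next tissue, by 1.01 ± 0.02. The other 4 tissues had gaps between neighbours below the RMS error. Mammary gland still exceeded omental fat by 0.37 ± 0.02 and mesenteric fat by 0.35 ± 0.07, more than the RMS error of each pair (0.26 and 0.28). Against an adipose mean without the subcutaneous depot, liver stood at 0.19 and mammary gland at 0.36, where the mean of all 3 depots gave -0.26 ± 0.05 and -0.10 ± 0.04.

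Cell type markers are given here as measured for subcutaneous against visceral fat, the comparison in which ABCC10 was called. Of 14 listed myeloid markers 11 were measured, and 7 were called higher in subcutaneous than in visceral fat, 1 lower and 3 neither (median difference 2.66). Their median level was 2.51 in subcutaneous, 1.31 in mesenteric and 1.73 in omental fat, 1.61 in liver and 0.37 in mammary gland. Adipocyte markers moved the other way: 3 of the 4 measured were called lower in subcutaneous fat (median difference -1.73), and 0 of 4 were highest there. Their median level was -0.12 in subcutaneous, 1.54 in mesenteric and 1.58 in omental fat. Endothelial markers had 5 of 6 called lower (median -1.21). Of 7 measured fibroblast and matrix markers 1 was called higher, 2 lower and 4 neither (median -0.83). Of all named genes 6.23% were called higher and 3.72% lower in subcutaneous than in visceral fat, with a median of 0.01. The part of these cell types in the ABCC10 difference was not tested. In bulk tissue, fewer cells of a type and less RNA per cell cannot be told apart.

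ABCD3 (Entrez 526059), the peroxisomal importer also known as PMP70, was highest in liver, intermediate in fat and lowest in mammary gland. Liver read 1.09 and 1.93 (1.51 ± 0.42) and mammary gland -1.34 and -0.73 (-1.03 ± 0.30). The 3 depots read -0.13 and 0.46 in mesenteric (0.17 ± 0.30), -0.17 and 0.45 in omental (0.14 ± 0.31), and -0.04 and 0.67 in subcutaneous fat (0.32 ± 0.36). The liver, adipose and mammary values did not overlap, and Cy5 read higher than Cy3 in all 5 tissues, by 0.59 to 0.84.

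Liver exceeded mammary gland by 2.55 ± 0.11 (5.84-fold, rank 84 of 4325) and the adipose mean by 1.31 ± 0.10 (2.47-fold). Mammary gland differed from the adipose mean by -1.24 ± 0.02 (2.36-fold lower). After quantile normalisation the second difference was 0.98, just short of the size rule. The depots lay within 0.18 log2 units of each other, under the RMS error.

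ABCA1 (Entrez 535379) was low in mammary gland compared with the other 4 tissues. Averaged over its 4 elements, mammary gland read 0.39 and 0.50 (0.44 ± 0.05). Liver read 1.70 and 2.01 (1.86 ± 0.16), mesenteric fat 2.22 and 2.60 (2.41 ± 0.19), omental fat 1.81 and 2.19 (2.00 ± 0.19) and subcutaneous fat 1.93 and 2.31 (2.12 ± 0.19). Both mammary values lay below all others. The gaps between subcutaneous and omental fat (0.12) and between omental fat and liver (0.14) were under the RMS error. Mammary gland differed from the adipose mean by -1.73 ± 0.14 (3.32-fold lower), rank 63 from the lowest of 4313 genes. Liver exceeded mammary gland by 1.41 ± 0.10 (2.66-fold). That call was lost after quantile normalisation, at 0.95.

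The 4 elements of ABCA1 did not carry the same profile. The first 3 read 1.64, 1.61 and 1.56 in liver, -0.04, -1.0 and -0.40 in mammary gland, and 1.70, 1.81 and 1.49 in subcutaneous fat. In mesenteric fat they read 1.20, 1.10 and 1.11, and in omental fat 1.04, 0.94 and 0.74. The fourth element read 2.62 in liver, 3.22 in mammary gland, 6.22 in mesenteric, 5.27 in omental and 3.48 in subcutaneous fat, above the others in every tissue. As a description of likeness over the 5 tissues, with 1 for the same shape and 0 for none in common, the cosine between profiles was 0.986 to 0.995 among the first 3, and -0.003 to 0.081 between each of them and the fourth.

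The lower level of ABCA1 in mammary gland than in the adipose mean was seen in each of the 4 elements, at -1.36 ± 0.07, -2.29 ± 0.06, -1.51 ± 0.34 and, for the fourth, -1.77 ± 0.06. In the fourth it came mainly from mesenteric (6.22) and omental fat (5.27). There subcutaneous fat (3.48 ± 0.25) stood close to mammary gland (3.22 ± 0.21). Other differences depended on the fourth element. Liver minus mammary gland was 1.68 ± 0.12, 2.61 ± 0.05 and 1.96 ± 0.31 in the first 3 and -0.61 ± 0.03 in the fourth. Subcutaneous minus visceral fat was 0.58, 0.79 and 0.56 against -2.26 ± 0.03. Liver minus the adipose mean was 0.32, 0.32 and 0.45 against -2.37 ± 0.03. Without the fourth element, an alternative added after the data were seen, ABCA1 was highest in subcutaneous fat (1.67 ± 0.17) and liver (1.60 ± 0.13), then mesenteric (1.14 ± 0.18) and omental fat (0.91 ± 0.14), and lowest in mammary gland (-0.48 ± 0.00). Liver minus mammary gland was then 2.08, liver minus the adipose mean 0.36 instead of -0.32, and subcutaneous minus visceral fat 0.64 instead of -0.08.

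**Figure D2:**
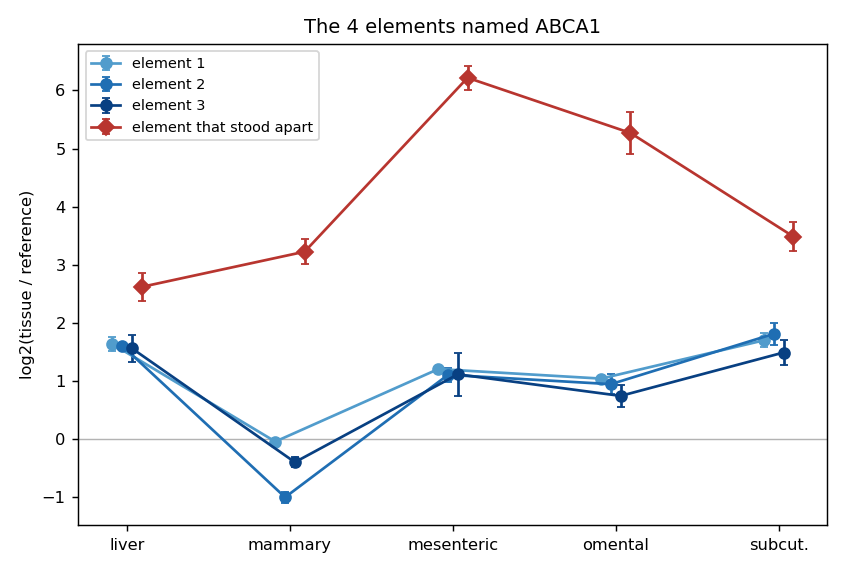
Level (vertical axis, log2 of tissue over reference) of the 4 elements named ABCA1 in the 5 tissues (horizontal axis). Points are the mean of both arrays, whiskers the dye orientation error, and lines join the values of 1 element. The elements numbered 1 to 3 are lowest in mammary gland and lie close together, and the other element reaches 6.22 in mesenteric adipose tissue and is lowest in liver.

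Markers of other cell types were also low in mammary gland against fat. Of 11 measured myeloid markers 8 were called lower and 1 higher (median -1.92), and all 7 measured fibroblast and matrix markers were called lower (median -2.91). Of all named genes 6.72% were called lower and 2.88% higher in this comparison, with a median of -0.05. Adipocyte markers had 2 of 4 called lower (median -1.08). Their part in the ABCA1 difference was not tested.

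ABCA5 (Entrez 510497), found in lysosomes and late endosomes and linked to cholesterol handling, varied least. Liver read 0.97 and 0.61 (0.79 ± 0.18), above all other values of the gene. Mesenteric fat read 0.50 and 0.17, mammary gland 0.42 and 0.15, subcutaneous fat 0.25 and 0.07, and omental fat 0.29 and -0.07. Liver minus mammary gland was 0.50 ± 0.05 and liver minus the adipose mean 0.59 ± 0.04, both short of the size rule. The other 4 tissues had gaps between neighbours under the RMS error.

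Across the comparisons, the counts were read against the share of all named genes past the same rule. Between liver and mammary gland, ABCC2, ABCD3, ABCC5 and ABCA1 were called higher in liver, where 9.34% of 4325 genes were. ABCG2 was called lower, where 4.44% of all genes were. ABCA5, ABCC3 and ABCC10 were not called. The median difference was 1.04 over the 8 genes and -0.01 over all genes. The 2 genes with the widest spans lay in the tails of this comparison, in opposite directions.

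Between liver and the adipose mean, ABCC2, ABCG2, ABCC5 and ABCD3 were called higher in liver (7.28% of 4326 genes) and none of the 8 lower (6.06% of all genes). The median was 0.95 over the 8 genes and -0.06 over all. ABCA1 at -0.32 ± 0.03, ABCC3 at -0.07 ± 0.14, ABCC10 at -0.26 ± 0.05 and ABCA5 at 0.59 ± 0.04 did not pass. This comparison shares the liver arrays with the preceding one, and the adipose arrays with the next, so a gene that several of them call was not observed independently in each.

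Between mammary gland and the adipose mean, ABCG2 was called higher (2.88% of 4313 genes), and ABCA1 and ABCD3 were called lower (6.72% of all genes). The other 5 genes did not pass. The median was -0.10 over the 8 genes, beside -0.05 over all genes, so the middle of the group lay at the middle of the array. ABCA5 (0.09 ± 0.01), ABCC5 (-0.10 ± 0.02) and ABCC10 (-0.10 ± 0.04) had the smallest differences.

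Fewer of the 8 genes were called between depots than in the other comparisons. ABCC10 was called higher in subcutaneous than in visceral fat (6.23% of 4332 genes), and none of the 8 genes was called lower (3.72% of all genes). The remaining values ran from -0.56 ± 0.03 for ABCG2 to 0.16 ± 0.05 for ABCD3, with ABCC5 at -0.27 ± 0.16 and ABCC3 at 0.11 ± 0.03. Their signs hold only relative to the array median: without centring, all genes shifted up by 0.63 in this comparison, the split of called genes became 858 higher to 40 lower in place of 270 to 161, and ABCA1, ABCA5, ABCC2, ABCC5 and ABCG2 turned positive. Between mesenteric and omental fat 0 of the 8 genes passed in either direction (0.829% higher and 0.576% lower of 4340 genes). ABCG2 had the largest of these differences, at 0.94 ± 0.12, and it was 0.63 without centring, which shifted all genes by -0.31 here. ABCA1 at 0.41 ± 0.01 was 0.23 without the element that stood apart and 0.10 without centring, where ABCC2 stood at -0.59.

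TAP2 passed in 0 of the 5 comparisons. Its level was 0.58 ± 0.06 in mesenteric and 0.47 ± 0.16 in omental fat, and below the reference in subcutaneous fat (-0.39 ± 0.16), liver (-0.22 ± 0.07) and mammary gland (-0.53 ± 0.27). The nearest to a call was subcutaneous minus visceral fat, at -0.91 ± 0.05.

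The size rule compares with the error as follows. The root mean square error over all named genes was 0.32 log2 units between liver and mammary gland, 0.21 between liver and the adipose mean, 0.23 between mammary gland and the adipose mean, 0.19 between subcutaneous and visceral fat, and 0.22 between mesenteric and omental fat. The 13 called differences of the 8 genes in these 5 comparisons ran from 1.24 to 4.38 in size. They kept their sign in every alternative run, 13 or 14 for each, but some of these runs could not turn a sign. A call already requires the same sign in both dye orientations, so leaving 1 orientation out cannot reverse it. The stricter rules leave the difference itself unchanged, and leaving out the ABCA1 element that stood apart leaves the other genes unchanged. Without centring, the split of all called genes became 303 higher to 301 lower between liver and mammary gland (404 to 192 with centring), 232 to 435 between liver and the adipose mean (315 to 262), and 19 to 74 between mesenteric and omental fat (36 to 25). After quantile normalisation it was 154 to 219 between mammary gland and the adipose mean (124 to 290).

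**Figure D3:**
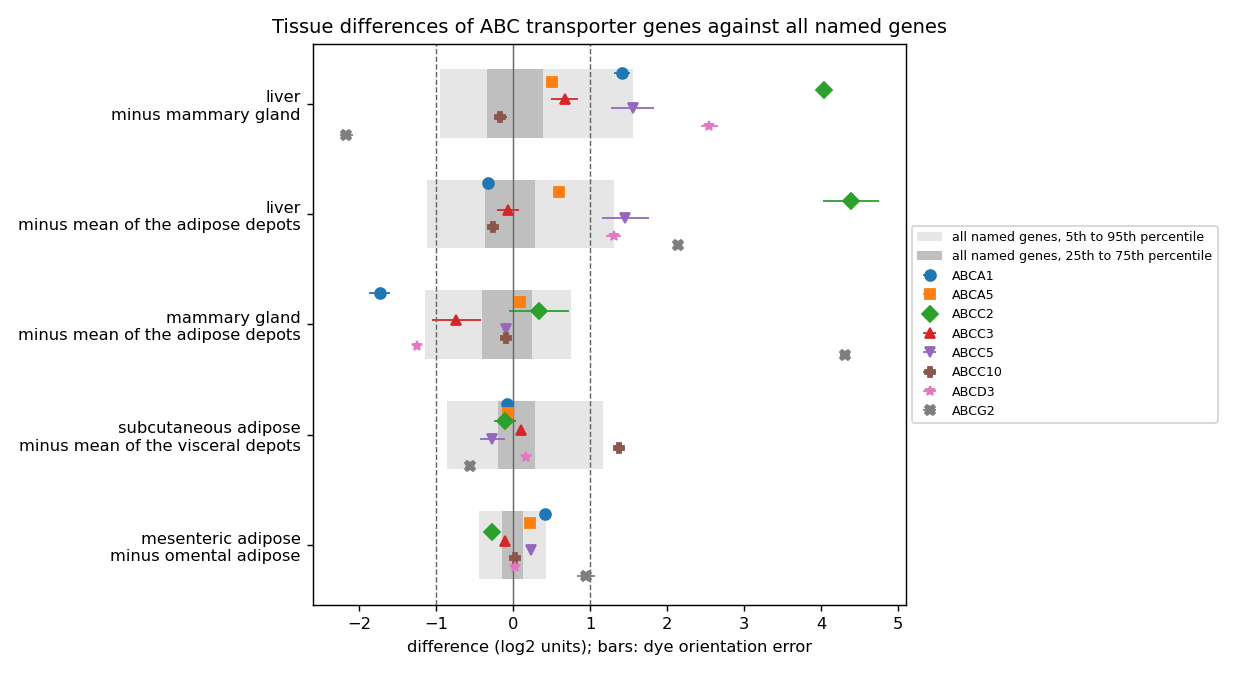
Differences of the 8 genes (horizontal axis, log2 units, with dye orientation error as bars) in each of the 5 comparisons (rows). Grey bands cover the middle of all named genes, from the 25th to the 75th and from the 5th to the 95th percentile, and dashed lines mark the size rule of 1 log2 unit. ABCC2 and ABCD3 lie far to the right in liver minus mammary gland, ABCG2 far to the right in mammary gland minus adipose, and ABCC10 beyond the line in subcutaneous minus visceral fat.

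The genes of the pathways in which these transporters act are described next, by lists drawn up with earlier results of these data known. The peroxisome, cyclic nucleotide, sterol and milk secretion lists were each set beside the comparison in which their transporter differed most. The bile acid, conjugation and anchor lists were set beside liver minus mammary gland. There ABCC2 differed by 4.04, against 4.38 for liver minus the adipose mean. The counts of the lists therefore add no independent support. For comparison, the share of all named genes called in the same direction and their median follow each list in brackets. Peroxisomal genes were listed for ABCD3. Of 55 listed, 17 were measured, and 10 were called higher in liver than in mammary gland, 0 lower and 7 neither (median 1.04). Of all genes 9.34% were higher and 4.44% lower, with a median of -0.01. CAT (catalase) differed by 5.81 ± 0.39, PHYH, which starts the breakdown of phytanic acid, by 4.46 ± 0.52 and SCP2, a sterol carrier and thiolase, by 3.07 ± 0.19. Against the adipose mean 9 of the 17 were called higher in liver (median 1.03, all genes 7.28% and -0.06). In mammary gland 3 were called lower than in fat and 14 not (median -0.15, all genes 6.72% and -0.05), and ABCD3 at -1.24 ± 0.02 fell among the values of these 3. The 3, named after their values were seen, were CAT (-2.13 ± 0.13), PHYH (-1.66 ± 0.22) and ACAA1 (-1.10 ± 0.79), a peroxisomal thiolase.

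Bile acid and organic anion carriers were listed for ABCC2. Of 28 listed, 4 were measured, and 3 were called higher in liver than in mammary gland (median 2.47, all genes 9.34% and -0.01). SLC10A1, the sodium-dependent bile acid uptake carrier of hepatocytes, differed by 5.56 ± 0.09, SLCO2B1, an organic anion uptake carrier, by 3.16 ± 0.04, and SLC27A2, an acyl-CoA and bile acid CoA ligase that is also on the peroxisome list, by 1.78 ± 0.03. The fourth gene, TMEM30A, a partner of phospholipid flippases, stood at 0.44 ± 0.40 and was named after its value was seen. Against fat the same count of 3 of 4 was higher in liver (median 2.67, all genes 7.28% and -0.06). Between mammary gland and fat 0 of 4 passed (median 0.09, all genes 2.88% higher, 6.72% lower and -0.05).

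Conjugating enzymes, which make many substrates of subfamily C, had 4 of 8 measured genes (29 listed) called higher in liver than in mammary gland, with 0 lower (median 1.32, all genes 9.34% and -0.01). SULT1E1, the estrogen sulphotransferase, differed by 3.77 ± 0.18, SULT1A1, a phenol sulphotransferase, by 2.65 ± 0.01 and GSR, which regenerates reduced glutathione, by 1.82 ± 0.00. Against fat 5 of 8 were called higher in liver (median 1.25, all genes 7.28% and -0.06). Membrane anchors of apical transporters were split, with 5 measured (9 listed). PDZK1, a scaffold of apical carriers, was higher in liver at 2.13 ± 0.18. EZR (ezrin), which ties the apical membrane to actin, was higher in mammary gland at -1.91 ± 0.23. The other 3 did not pass (median of the list -0.52, all genes 9.34% higher, 4.44% lower and -0.01). Genes of cyclic nucleotide turnover, listed for ABCC5, had 0 of 5 measured genes past the rule between liver and mammary gland (median 0.00, all genes 9.34% higher, 4.44% lower and -0.01).

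Sterol handling genes were listed for ABCA1. Of 26 listed, 9 were measured, and between mammary gland and fat 1 was called lower and 8 did not pass (median -0.43, all genes 6.72% and -0.05), so the count lies near the share of all genes. That gene, LIPA, the lysosomal acid lipase, stood at -3.17 ± 0.12. Between subcutaneous and visceral fat 5 of 9 were called higher (median 1.14, all genes 6.23% and 0.01), a comparison in which myeloid markers were also higher, as given above. The part of myeloid cells in that count was not tested.

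Milk secretion genes were listed for ABCG2. Of 24 listed, 11 were measured, and 10 were called higher in mammary gland than in fat (median 2.40, all genes 2.88% and -0.05). EHF, an epithelial transcription factor, differed by 4.33 ± 0.53, MFGE8, a milk fat globule protein, by 3.88 ± 0.42 and MUC1, an apical mucin, by 3.41 ± 0.87. The 1 not called was SLC52A2, a riboflavin uptake carrier, at 0.38 ± 0.09, named after its value was seen because ABCG2 exports riboflavin. ABCG2 at 4.31 ± 0.07 lay close to the top of this list. Between liver and mammary gland 8 of 11 were called lower in liver, 1 higher and 2 neither (median -2.49, all genes 4.44% lower, 9.34% higher and -0.01). Against fat, liver had 2 of 11 called higher and 1 lower (median 0.26, all genes 7.28% higher, 6.06% lower and -0.06). ABCG2 was higher in that comparison, at 2.14 ± 0.01. The mammary sample held its epithelial markers, at a median level of 3.45, against -0.32 in liver. Their part in the ABCG2 difference was not tested.

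**Figure D4:**
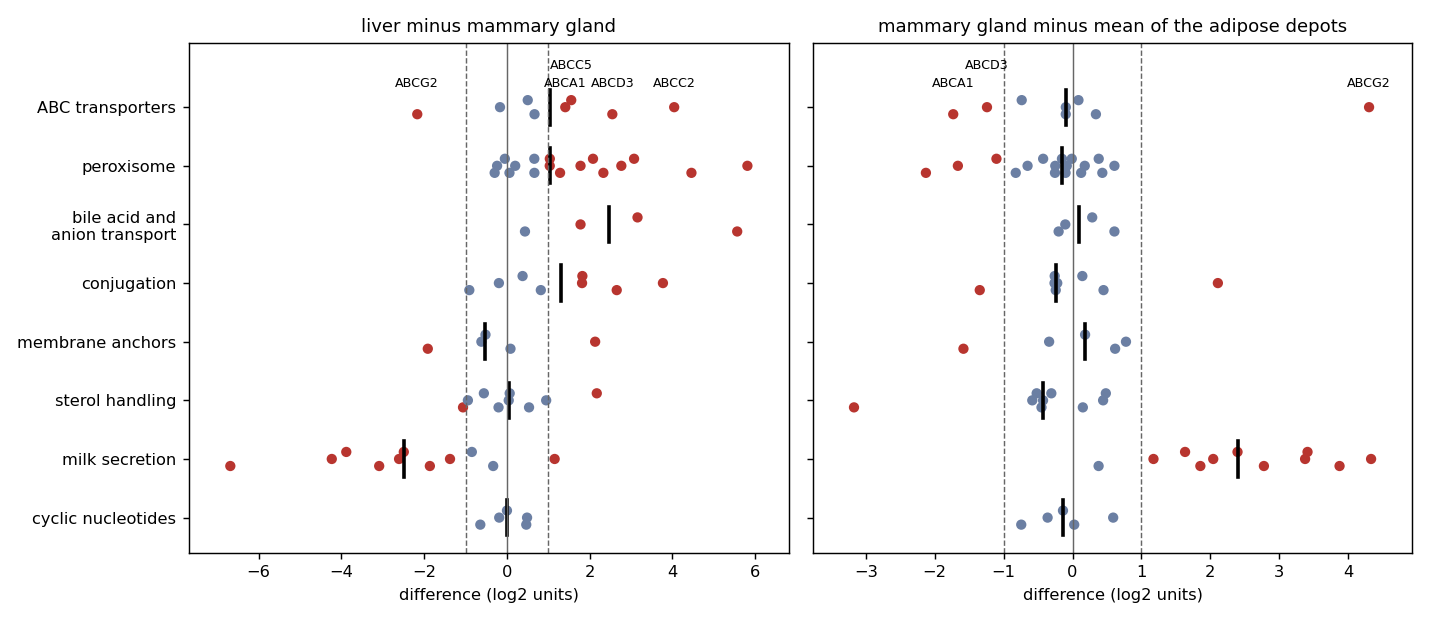
Differences (horizontal axis, log2 units) of the 8 ABC transporter genes and of the measured genes of each pathway list (rows), for liver minus mammary gland (left) and mammary gland minus the adipose mean (right). Each point is a gene, red where it passed the size rule, black bars are medians, and dashed lines mark 1 log2 unit. Peroxisomal and conjugation genes sit to the right of 0 in the left panel (medians 1.04 and 1.32), and milk secretion genes to the right in the right panel (median 2.40).

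For the 3 genes whose tissues spanned at least 2 log2 units, the named genes with the most similar values over the 10 arrays were found by the root mean square difference, in log2 units, after each gene was centred on its own mean. This describes profiles over 5 samples, on arrays that the genes share. For ABCC2 they were DPP4 (0.38), GAMT (0.39) and UPF2 (0.58) among 4306 genes. For ABCD3 they were ENPP1 (0.18), IL13RA1 (0.20) and SH3BGRL (0.21). For ABCG2 the nearest genes lay farther off, at 0.60 for ASB11, 0.65 for DNAJC12 and 0.88 for MUC1. After quantile normalisation the ABCG2 value was 0.80 for ASB11 and 0.56 for DNAJC12.

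The 10 arrays had values for 15970 to 16245 spots each, and duplicate spots correlated at 0.83 to 0.92. Across all spots and before signs were turned, the 2 arrays of a tissue correlated at -0.78 to -0.66 and arrays of the same dye orientation but different tissue at 0.23 to 0.79. The number of arrays limits the precision, and signal over background was not analysed here.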

How the data were processed

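The values used are those of the deposited value table, 1 column for each of 10 two-colour arrays, read with GenePix 4.0 per the labels. The deposited values were taken as log2 of the ratio of the dyes, since their ceiling of 16.61 is the log2 of 100000. The labels name no base. How the authors corrected for background and normalised is not given in the sources used. Array medians ran from -1.32 to 0.71 as deposited. Ceiling values (1 to 16 per array) were taken as missing, the sign was turned on arrays whose tissue was in Cy3, each array was centred on its median, and both spots of an element and then all elements of a gene were averaged (Python 3.11.15, numpy 2.4.6, pandas 2.3.3). The calculations were tested on simulated data. No sample was left out of the main values, and the omental Cy5 array was used as its title and dye label give it.

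Identifiers at face value gave elements of one gene unrelated profiles (mean cosine 0.013), so the print layout was searched over 768 annotation and 384 table layouts on 475 genes. The best layout had a mean cosine of 0.50 on 476 held-out genes (median 0.72, 634 pairs), against 0.14 for the next different layout. For the 224 pairs whose profiles varied most (tissue SD above 0.5) the median was 0.98. The family of layouts was known from earlier work on the same data, so the held-out genes were not blind. Plates 1 to 20 were named, and an ABC gene on a later plate, TAP1, was not. Symbols were updated by Entrez identifier with RefSeq genes (assembly ARS-UCD2.0) (5467 of 5472 elements matched). Of the annotation's identifiers 10884 had 1 symbol, 186 several and 5346 none.

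The members, lists and tests were chosen with earlier results of these data known. Named genes are the members, measured ABC genes of a further list, the 3 genes most like each member that spans at least 2 log2 units, and the 3 largest called differences of each list in its own comparison. Other names are marked as chosen after their values were seen. The 14 alternatives covered centring, quantile normalisation, ceiling values, how elements are combined, the size rule, each dye orientation left out, the omental Cy5 array, and the makeup of the adipose mean.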

Additional observations from a re-analysis of the deposited data

How the results depend on the processing

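Of the counts and values recomputed under 14 alternatives, 129 counts of called genes stayed within 1.5 times their main value and 5 did not, and of the other values 522 moved by less than the SD between dye orientations over all named genes (or by less than 0.1 for a likeness) and 32 by more. No called difference reversed, though the runs that left out a dye orientation or changed the size rule could not reverse one. Without the arrays that carry the tissue in Cy5, 1 of the 8 ABC genes (ABCG2) was higher in mesenteric than in omental fat, as were 1.47% of all named genes. Leaving out the omental Cy5 array is the same calculation for this pair, since only the Cy3 orientation remains. With 1 orientation the sign part of the rule is always met. The count ran from 0 to 1 over the dye orientations left out. With a size rule of 1.5 log2 units, 2 genes (ABCC2 and ABCG2) were still higher in liver than in fat (4.05% of all genes). At that rule 1 (ABCA1) was lower in mammary gland than in fat (2.48% of all genes). None (0) was higher in subcutaneous than in visceral fat (3.28% of all genes). The other counts of ABC genes called kept within the range given. No paired analysis was possible because the results come from no test and each tissue is 1 RNA sample, and differences were already taken within a dye orientation. What limits these values is the single sample per tissue, the print layout behind the names, the unstated direction of the ratio, and the unknown signal over background. The cause of the values that moved was not tested.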

Other observations

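The element of ABCA1 that stood apart lay nearest, over the 10 arrays, to FHL1 (root mean square difference 0.39 log2 units), FBLN1 (0.40) and MCAM (0.44), whereas the first of the other ABCA1 elements lay nearest to GLUL (0.22). These genes were chosen after the element had been seen to stand apart, and whether the element carries a wrong name was not tested.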
